A study of Mus musculus with 14 samples.

Results

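Of the 47937 genes counted in these macrophage libraries, 45 were almost without reads in untreated cells and were counted once the cells had been given a mast cell product, beside the well known mast cell genes that were left out. Members were chosen on the measured counts: pooled counts of a group were divided by its pooled total, and a gene entered with under 0.1 CPM (counts in each 1000000 total counts) over the 6 untreated libraries, at least 0.5 CPM over the 8 treated libraries, counts in treated libraries of all 3 batches, and a symbol. The 16 genes left out are the protease genes Mcpt4, Cma1, Tpsb2, Tpsab1, Cpa3, Mcpt1 and Mcpt2, the receptor genes Kit, Fcer1a, Ms4a2, Il1rl1, Mrgprb1 and Mrgprb2, the histamine and amine genes Hdc and Slc18a2, and Gata2. Of these 16, 11 met the same levels. Because treated and untreated levels chose the members, the gap between them is a description and carries no test, and only differences among treated libraries were tested.

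The cells, labelled wild-type (WT), were mouse bone marrow-derived macrophages, which are grown in culture from bone marrow precursors, and poly(A) RNA was sequenced. Untreated cells gave 6 libraries (replicates 1 and 4 in batch 1, 2 and 5 in batch 2, 3 and 6 in batch 3). Cells given mast cell supernatant for 3.5 h gave 5 (1 and 4 in batch 1, 2 in batch 2, 3 and 5 in batch 3), called mast cell 1 to 5 below, and cells given the supernatant of mast cell intracellular traps for 3.5 h gave 3 (1 in each batch, by its number), called trap 1 to 3. How the mast cells were grown, how the supernatants were made and whether they were freed of cells is not stated in the sources used. The labels do not say that replicates are separate cultures or animals. The p-values therefore reflect only the spread between these libraries, which may be technical.

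Mast cells are tissue-resident immune cells filled with secretory granules that hold proteases, heparin, histamine and, in rodents, serotonin. They release granules when IgE receptors are cross-linked or when basic peptides bind Mas-related G protein-coupled receptors, and they need the stem cell factor receptor encoded by Kit and the transcription factors encoded by Gata2 and Mitf.

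A few sequences place the members on the genome. Tpsg1 starts 174 bases after the end of Tpsb2, and Il18r1 starts 136 bases after the end of Il1rl1, each on the same strand as that left-out gene, so the whole stretch between the genes is shown. The 250 bases before the start of Rgs13 and of Tph1 are shown because Rgs13 had the most matches to the GATA letters searched (AGATAA and TGATAA, both strands) and Tph1, the member with the highest CPM, had none. Tph1 has another RefSeq window, chr7:46667378-46667627, which had 0 matches as well and is not shown. Capitals mark these matches on either strand. All are read 5′ to 3′ on the gene's own strand from GRCm38:
Tpsb2 to Tpsg1, chr17:25369099-25369272, plus strand: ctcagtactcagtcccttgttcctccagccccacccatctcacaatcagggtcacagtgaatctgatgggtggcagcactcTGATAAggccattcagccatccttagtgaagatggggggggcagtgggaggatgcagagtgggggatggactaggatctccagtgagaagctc
Il1rl1 to Il18r1, chr1:40465416-40465551, plus strand: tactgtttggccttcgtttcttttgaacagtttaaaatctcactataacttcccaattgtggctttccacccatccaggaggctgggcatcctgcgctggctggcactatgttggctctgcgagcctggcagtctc
Rgs13 upstream, chr1:144177373-144177622, minus strand: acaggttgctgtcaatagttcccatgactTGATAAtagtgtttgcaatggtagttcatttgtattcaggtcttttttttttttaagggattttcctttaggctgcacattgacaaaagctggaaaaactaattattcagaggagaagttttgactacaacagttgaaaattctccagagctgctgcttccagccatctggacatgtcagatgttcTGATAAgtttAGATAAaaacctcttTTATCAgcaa
Tph1 upstream, chr7:46672538-46672787, minus strand: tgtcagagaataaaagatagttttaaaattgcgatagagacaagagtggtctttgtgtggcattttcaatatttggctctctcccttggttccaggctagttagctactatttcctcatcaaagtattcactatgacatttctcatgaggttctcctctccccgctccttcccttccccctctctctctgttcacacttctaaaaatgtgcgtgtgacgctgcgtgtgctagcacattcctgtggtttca

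In RefSeq promoter windows (GRCm38.p6, the 250 bases before a gene's start), 43 windows of 33 members were found. A GATA match lay in 6 of these 43 (13.95%) and in 16.6% of all 32851 windows. The E-box letters CATGTG and CACGTG lay in 13.95% of member windows and 17.6% of all, and CAGCTG in 18.6% against 13% of all. TGACTCA lay in 4.65% against 4.46%. The shares of members thus lay below those of all windows for the GATA and the CATGTG or CACGTG letters and above for CAGCTG, none of it tested, and a match or its lack is a description of the letters alone.

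Total counts ran from 11729073 to 22720419 per library. Of the 20 genes on the macrophage marker list, 19 were at 1 CPM or more in pooled untreated libraries, but Lyz2, a lysozyme gene of macrophages, was near 0 in all 5 libraries of batch 3. Lyz2 stood at 9244 to 9882 CPM in batch 1, 5117 to 5643 CPM in batch 2, and 0.0596 to 0.171 CPM in untreated and treated libraries of batch 3 alike. The labels give WT for all 14 libraries. Every result that sets batch 3 against another batch, or that rests on trap 3, includes libraries in which Lyz2 was near 0, and the values within batches 1 and 2 are given apart from them. Applied without the batch 3 libraries, an alternative chosen after seeing the data, the rule again gave 45 genes, of which 40 were among the 45 here. The marker list had a summed level of 26126 to 38285 CPM in untreated, 26044 to 37075 CPM in mast cell supernatant and 28284 to 36809 CPM in trap supernatant libraries. The 16 left-out mast cell genes serve as a yardstick: their summed level was 7.22 to 9.72 CPM in untreated libraries. It was 79.9, 1631, 308, 102 and 251 CPM in mast cell 1 to 5, and 83.1, 870 and 2151 CPM in trap 1 to 3. Batch 1 was thus lowest and mast cell 2, trap 2 and trap 3 highest, and most of what follows is read against this order.

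The 45 members summed to 0.838 to 1.43 CPM in untreated libraries. In treated libraries the sum was 8.02, 216, 38.2, 9.48 and 34.6 CPM for mast cell 1 to 5, and 8.02, 117 and 291 CPM for trap 1 to 3. Every treated library lay above every untreated one, as the choice of members makes likely, and the highest treated library stood 36.3 times above the lowest. In bulk RNA, fewer cells of a type and less RNA per cell cannot be told apart. Over all members, 123 counts fell in untreated and 10225 in treated libraries. Untreated counts were 0 for 13 members, 1 to 3 for 20 and more for 12, so "only with supernatant" is exact for the 13 alone, at a floor of 3 counts or 0.0290 CPM over the untreated group, which covers counting error only. Pooled treated levels were mostly low: 4 members reached 5 CPM, 20 lay between 1 and 5 CPM and 21 under 1 CPM. In all 8 treated libraries, 21 members had counts.

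**Figure D1:**
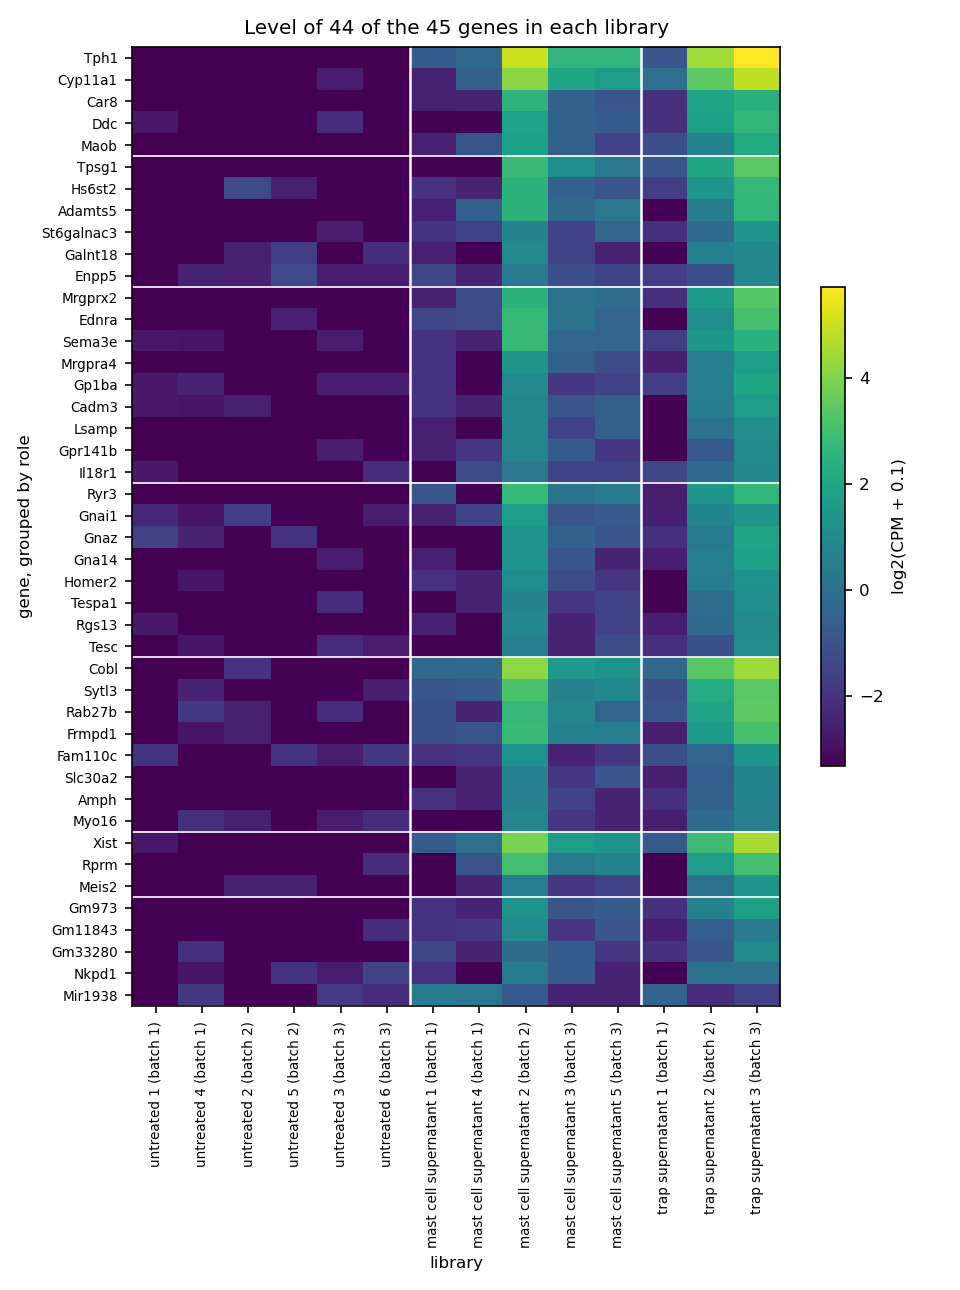
Level of 44 of the 45 genes (rows, grouped by role) in each of the 14 libraries (columns, ordered by group and batch), as log2(CPM + 0.1). Untreated columns are dark throughout, and the bright columns are mast cell 2, trap 2 and trap 3, the 3 highest libraries for 42 of all 45 genes.

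Tph1 and Cyp11a1, enzyme genes of serotonin and steroid synthesis, had the highest CPM over the pooled treated libraries. Tph1, tryptophan hydroxylase 1, catalyses the rate-limiting step of serotonin synthesis outside the brain (ENSMUSG00000040046, chromosome 7, 46644641 to 46672537). It had 0 counts in all 6 untreated libraries, 0.501, 32.6, 5.88, 0.748 and 6.01 CPM in mast cell 1 to 5, and 0.419, 22.1 and 52.6 CPM in trap 1 to 3. Batch 1 was lowest in both treated groups, whose values overlapped, and against the floor the pooled treated level was at least 539-fold higher than the untreated one. Ddc, the decarboxylase of the next step to serotonin, had 3 untreated counts and reached 3.60 CPM in mast cell 2 and 6.20 CPM in trap 3, with 0 counts in mast cell 1 and 4. Maob, a monoamine oxidase gene, had 0 untreated counts and ran from 0.0716 CPM in mast cell 1 to 4.43 CPM in trap 3.

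Cyp11a1 encodes the enzyme that cleaves the cholesterol side chain, the first step of steroid synthesis (ENSMUSG00000032323, chromosome 9, 58006411 to 58027023). It had 1 count in untreated replicate 3, 0.0716, 17.6, 3.92, 0.582 and 3.13 CPM in mast cell 1 to 5, and 0.907, 10.9 and 28.6 CPM in trap 1 to 3. Its pooled ratio of treated to untreated was 874, with an exact 95% binomial interval of 157 to 34570 that covers counting error only. Its 3 highest libraries were those of Tph1 in the same order, trap 3, mast cell 2 and trap 2. Car8, a carbonic anhydrase-related gene, had 0 untreated counts and was highest in mast cell 2, at 5.77 CPM, with 5.24 CPM in trap 3. Together the 5 enzyme genes summed to at most 0.182 CPM in an untreated library and to 97.1 CPM in trap 3.

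Scaled to the length of their exons, which allows genes to be compared, Tph1 stood at 2.54 CPM per kb over the pooled treated libraries. The tryptase gene Tpsg1 had 2.28 CPM per kb, Rprm 1.99, Cyp11a1 1.76 and the pseudogene Gm11843 1.40. Mir1938 had the highest value, 5.05 CPM per kb, on an annotated length of 100 bases. The median of the 45 was 0.295 CPM per kb and the lowest was Lsamp at 0.0432. On this scale the order of the most abundant members differs from that in CPM, where Cobl and Xist, with longer exons, followed Tph1 and Cyp11a1.

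**Figure D2:**
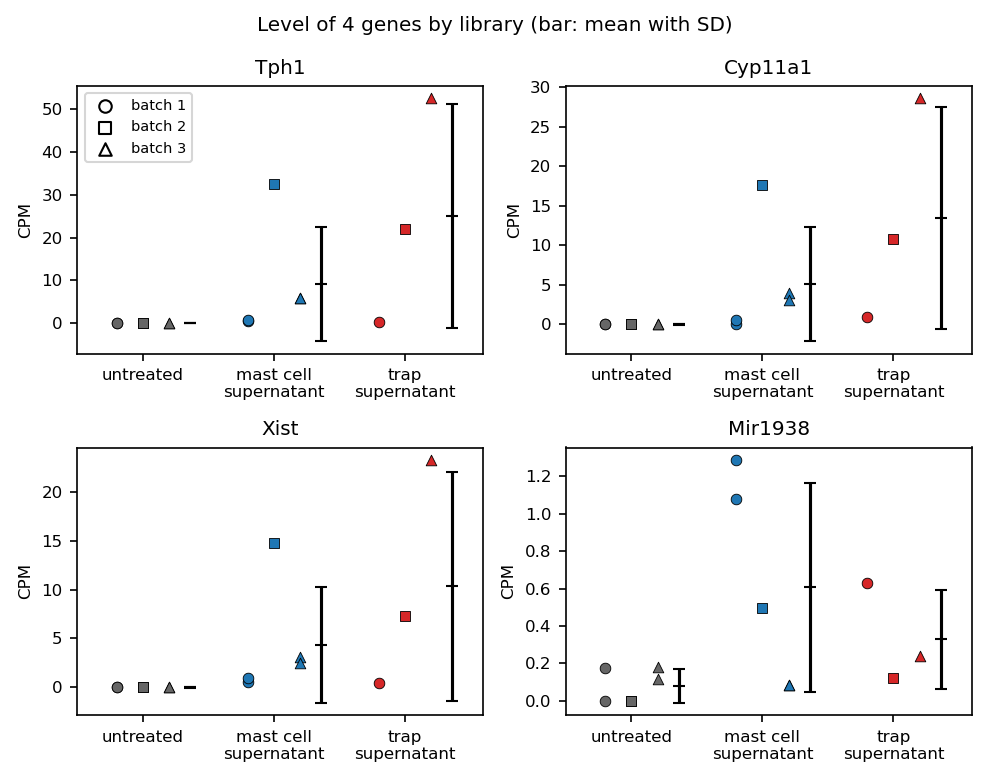
CPM of Tph1, Cyp11a1, Xist and Mir1938 in each library (points, shaped by batch) in untreated cells (n = 6), mast cell supernatant (n = 5) and trap supernatant (n = 3), with the mean and SD of each group as a bar beside it. Tph1, Cyp11a1 and Xist share the order of libraries, with trap 3 and mast cell 2 highest, while Mir1938 is highest in batch 1.

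Proteases and glycan enzymes made up 6 members. Tpsg1, the membrane-anchored tryptase gamma 1 (ENSMUSG00000033200, chromosome 17, 25369273 to 25374442), had 0 counts in untreated libraries and in mast cell 1 and 4. It had 6.70, 2.05 and 1.10 CPM in mast cell 2, 3 and 5, and 0.419, 3.88 and 10.47 CPM in trap 1 to 3. Its neighbour Tpsb2 had 0 counts in untreated libraries too and 19.4 to 381 CPM in treated ones, and Tpsg1 overlaps Cacna1h on the opposite strand, a gene at 0.0184 CPM in pooled treated libraries. Adamts5, an aggrecan-cleaving protease gene, had 0 untreated counts, 5.71 CPM in mast cell 2 and 6.20 CPM in trap 3. Hs6st2, a heparan sulfate 6-O-sulfotransferase gene, had 5 untreated counts, 5.58 CPM in mast cell 2 and 6.36 CPM in trap 3. The glycosyltransferase genes St6galnac3 and Galnt18 and the nucleotide pyrophosphatase family gene Enpp5 were under 1 CPM in pooled treated libraries.

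Receptors and ligands numbered 9. Mrgprx2 and Mrgpra4, Mas-related receptor genes, had 0 untreated counts. Mrgprx2 had 0.0716, 5.64, 0.938, 0.333 and 0.846 CPM in mast cell 1 to 5, and 0.140, 2.91 and 9.91 CPM in trap 1 to 3. It lies 22276 bases from the left-out Mrgprb1, whose treated levels ran from 0.429 to 48.0 CPM. Both had their 3 highest levels in trap 3, mast cell 2 and trap 2. Ednra, the endothelin A receptor gene, had 1 untreated count and 6.57 and 8.46 CPM in mast cell 2 and trap 3, with 0 counts in trap 1. Sema3e, a semaphorin that binds plexin D1, had 3 untreated counts and was highest in mast cell 2, at 6.88 CPM. Gp1ba, a chain of the platelet receptor for von Willebrand factor, reached 4.03 CPM in trap 3 and 1.92 CPM in mast cell 2. Il18r1, a chain of the interleukin-18 receptor, reached 1.77 CPM in trap 3, where its neighbour Il1rl1 stood at 103.7 CPM. Cadm3 and Lsamp, adhesion molecules of the immunoglobulin family, and Gpr141b, annotated as a lincRNA, were under 1 CPM in pooled treated libraries.

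Signalling genes included 3 alpha subunits of G proteins. Gnai1, Gnaz and Gna14 had 7, 9 and 1 untreated counts and pooled treated levels of 1.16, 1.11 and 1.05 CPM. Rgs13, a regulator that ends G protein signalling, had 1 untreated count, 1.74 CPM in mast cell 2 and 1.85 CPM in trap 3. Ryr3, an intracellular calcium release channel gene, had 0 untreated counts, 6.64 CPM in mast cell 2 and 6.28 CPM in trap 3. It overlaps Aven on the opposite strand, and Aven stood at 13.6 CPM in pooled untreated and 13.1 CPM in pooled treated libraries. Homer2, a scaffold of calcium signalling complexes, Tesc, a calcium-binding protein gene, and Tespa1, known from T cell receptor signalling, were under 1 CPM in pooled treated libraries.

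Vesicle, cytoskeleton and membrane genes were the other large group, with 9 members. Cobl, an actin nucleator (ENSMUSG00000020173, chromosome 11, 12236608 to 12464960), had 2 untreated counts, both in replicate 2, then 0.716, 17.9, 2.81, 0.748 and 2.37 CPM in mast cell 1 to 5, and 0.698, 10.3 and 20.7 CPM in trap 1 to 3. Rab27b, a small GTPase of granule secretion, had 7 untreated counts and reached 11.04 CPM in trap 3 and 6.45 CPM in mast cell 2. Sytl3, which encodes a synaptotagmin-like protein that binds Rab27, had 3 untreated counts and reached 10.47 CPM in trap 3 and 8.56 CPM in mast cell 2. Both were counted in all 8 treated libraries. Sytl3 overlaps Ezr on the opposite strand, which stood at 98.6 CPM in pooled untreated and 93.9 CPM in pooled treated libraries, and 21.1% of the 50-base stretches of its exons also occur in another gene's. Frmpd1, a gene for a protein with FERM and PDZ domains, reached 8.46 CPM in trap 3. Amph, Myo16, Slc30a2 and Fam110c, genes for amphiphysin, a myosin, a zinc transporter and a protein of no role given here, were under 1 CPM in pooled treated libraries.

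Xist, the noncoding RNA that coats the inactive X chromosome of female cells (ENSMUSG00000086503, X chromosome, 103460366 to 103483254), had 1 count in untreated replicate 1 and 0 in the other 5. It had 0.501, 14.8, 3.07, 0.914 and 2.45 CPM in mast cell 1 to 5, and 0.488, 7.28 and 23.3 CPM in trap 1 to 3. All 14 libraries also held Y-linked transcripts, chosen after the Xist values were seen. Ddx3y stood at 46.8 CPM in pooled untreated and 46.5 CPM in pooled treated libraries, Uty at 13.2 and 14.6, Kdm5d at 20.6 and 18.9, and Eif2s3y at 45.5 and 45.4. The Y-linked levels thus differed little between groups while Xist followed the mast cell yardstick, whose part in the result was not tested. Tsix, antisense to Xist, had 1 count over the untreated and 0 over the treated libraries. Rprm, a gene linked to cell cycle arrest, reached 8.30 CPM in trap 3, and Meis2, a homeobox factor, 2.50 CPM there.

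Members with no role given here were Gm973, Gm11843, Gm33280, Nkpd1 and Mir1938. Gm973 had 0 untreated counts and 3.38 CPM in trap 3. Gm11843, a processed pseudogene of 425 bases, was highest in mast cell 2, at 1.80 CPM, and shares 26.3% of its 50-base stretches with Gm6361, so its counts are uncertain. Mir1938 departed from all others. It had 1.29, 0.496, 0.0853, 1.08 and 0.0846 CPM in mast cell 1 to 5, 0.628, 0.121 and 0.242 CPM in trap 1 to 3, and up to 0.182 CPM in an untreated library. It was highest in mast cell 1, mast cell 4 and trap 1, the libraries of batch 1, where the yardstick was lowest, and it rested on 55 treated counts.

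Mir1938 lies inside Ifrd1 on the same strand. Ifrd1 stood at 115 to 176 CPM in untreated libraries, 376, 206, 93.8, 482 and 90.5 CPM in mast cell 1 to 5, and 478, 111 and 132 CPM in trap 1 to 3. The 3 libraries of batch 1 were highest for both genes, and whether the Mir1938 counts are reads of Ifrd1 transcripts was not tested. The libraries were made from poly(A) RNA and do not measure mature miRNAs. The mature sequence in RefSeq (chr12:40222782-40222803, minus strand), with its seed, bases 2 to 8, in capitals, is shown because this is the single miRNA locus among the members:
miR-1938: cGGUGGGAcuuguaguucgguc

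Across treated libraries the members kept nearly the same order as the left-out genes. Of the 45, 35 were highest in trap 3, 8 in mast cell 2, 1 in trap 2 and 1 (Mir1938) in mast cell 1. Among 12853 other genes at or above the treated minimum, 9.62% were highest in trap 3. For 42 members the 3 highest libraries were mast cell 2, trap 2 and trap 3 in some order, which held for 11.4% of the other genes. In the median member these 3 libraries held 88.0% of the treated counts. The exceptions were Gpr141b and Gm33280, which had mast cell 3 among their 3 highest, and Mir1938. Since pooled treated counts chose the members, these counts are a description.

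The summed level of the members was 9.33% to 13.8% of that of the 16 left-out genes in each treated library, while the left-out sum itself ran 26.9-fold from lowest to highest. The share was 10.03%, 9.33% and 9.66% in the batch 1 libraries mast cell 1, mast cell 4 and trap 1. It was 13.2% and 13.5% in mast cell 2 and trap 2 of batch 2, and 12.4%, 13.8% and 13.5% in mast cell 3, mast cell 5 and trap 3 of batch 3. It was therefore lower in all batch 1 libraries than in the others. Mir1938 is part of these sums. Without it the members summed to 6.73 instead of 8.02 CPM in mast cell 1 and to 8.40 instead of 9.48 CPM in mast cell 4. In trap 1 they summed to 7.40 instead of 8.02 CPM, and in mast cell 2 to 215 instead of 216 CPM. The batch 1 shares are thus lower still without Mir1938. Against the 11 left-out genes that met the same levels, a choice made after seeing the data, the share of all 45 members ran from 11.7% to 16.8%.

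**Figure D3:**
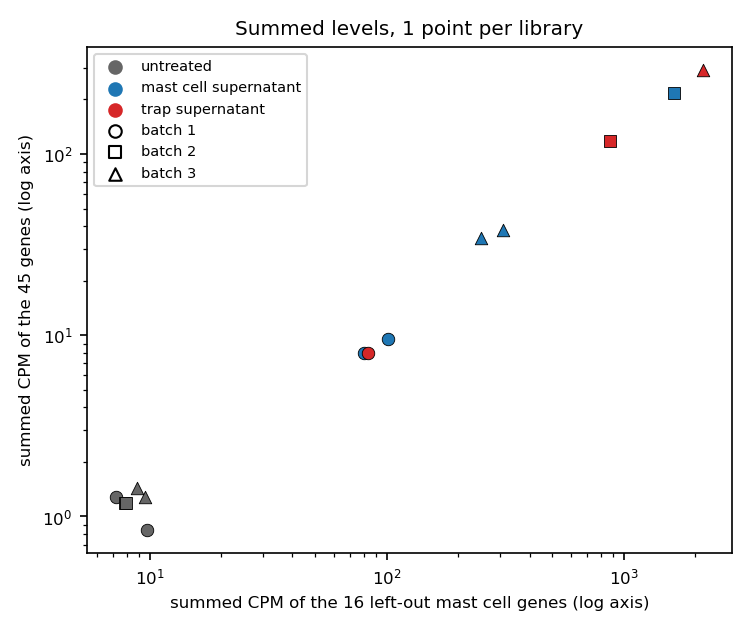
Summed CPM of the 45 genes (vertical, log axis) against the summed CPM of the 16 left-out mast cell genes (horizontal, log axis), 1 point per library, coloured by group and shaped by batch. Untreated libraries sit at 0.838 to 1.43 CPM on the vertical axis, and the treated ones lie along 1 band up to trap 3 at 291 CPM.

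Single members were set against the same sum. In the 5 libraries of batches 2 and 3, the member's percent of the left-out sum varied within 2-fold for 19 members, by 2-fold to 3-fold for 13 and by more for 13. Cyp11a1 ranged from 1.08% to 1.33%, Xist from 0.836% to 1.08%, Cobl from 0.913% to 1.18% and Tph1 from 1.91% to 2.54%. These 4, with the highest counts, had the narrowest ranges. The widest was that of Fam110c, from 0.0277% in mast cell 3, where it had 1 count, to 0.145% in mast cell 2. In batch 1, in the order mast cell 1, mast cell 4 and trap 1, Tph1 stood at 0.6267%, 0.7365% and 0.5038%. Cyp11a1 stood at 0.08953%, 0.5728% and 1.092%, and Cobl at 0.8953%, 0.7365% and 0.8396%. These values lay below the ranges above, save that of Cyp11a1 in trap 1. Xist lay below its range in mast cell 1 and trap 1 and within it in mast cell 4. Each of these 4 genes had at most 13 counts in any batch 1 library.

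Whether trap supernatant gave higher or lower levels than mast cell supernatant was tested in the 8 treated libraries with edgeR's quasi-likelihood test, with batch in the model and Benjamini-Hochberg adjustment over the 12506 genes that passed a filter on low counts. The filter kept 36 of the 45 members, those with enough counts in at least 3 libraries, so the 36 are the better-counted members. For 42 of the 45 the 3 highest libraries were mast cell 2, trap 2 and trap 3. A member could thus pass the filter through these libraries alone. Galnt18, for example, had 1.86, 1.46 and 1.77 CPM there and at most 0.256 CPM in the other treated libraries. Of all genes tested, 0.176% passed, and 0 members did. DESeq2 likewise called 0 members, and 1 of the 36, Ddc, had an unadjusted p below 0.05, at a log2 difference of 1.72 ± 0.69 (SE; adjusted p = 0.97). Tph1 averaged 9.14 ± 13.4 CPM (SD, n = 5) with mast cell supernatant and 25.0 ± 26.2 CPM (n = 3) with trap supernatant, a log2 difference of 1.38 ± 0.91 (SE; edgeR adjusted p = 0.978). Cyp11a1 averaged 5.06 ± 7.20 and 13.5 ± 14.03 CPM, a log2 difference of 1.37 ± 0.89 (adjusted p = 0.978). Each SD exceeded its mean. The median log2 difference of the 36 was 1, against 0.00291 over all genes tested. Without trap 3 it was -0.785 and the direction turned. Without trap 2 it was 2.46 with 18 members called, and without mast cell 2 it was 2.52 with 4 called. The filter was rerun in each of these fits, so the members tested need not be the same 36. The share of all genes called in these fits is not given here.

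The 3 batches gave different answers. Within batch 1 the median log2 difference of the 45 members, trap minus mast cell supernatant, was -0.16, with 21 members higher and 24 lower. Within batch 2 it was -0.92, with 1 higher and 44 lower. Within batch 3 it was 2.86, with all 45 higher, from 1.03 for Mir1938 to 3.90 for Gp1ba. Over all genes tested the same medians were 0.04, 0.00 and -0.01. Tph1 moved by -0.49, -0.56 and 3.13 in batches 1 to 3 and Xist by -0.43, -1.01 and 3.05. The left-out sum was 79.9 and 102 against 83.1 CPM in batch 1, 1631 against 870 CPM in batch 2, and 308 and 251 against 2151 CPM in batch 3, mast cell supernatant first. The yardstick thus moved with the members in batches 2 and 3, and its part in the difference was not tested.

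**Figure D4:**
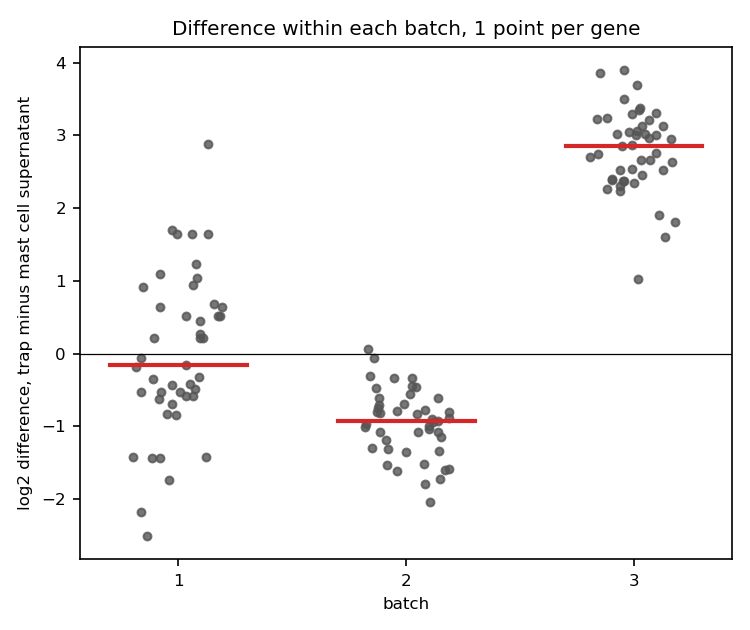
Log2 difference of each of the 45 genes between trap and mast cell supernatant within each batch (points, spread sideways for legibility), with the median as a red line at -0.16, -0.92 and 2.86. Points straddle 0 in batch 1, lie below it in batch 2 for 44 genes, and lie above it in batch 3.

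The trap minus mast cell difference was also set between batches with a group by batch interaction, added after the values within batches were seen. Its error rests on 2 residual degrees of freedom, from the same-batch pairs mast cell 1 with 4 and mast cell 3 with 5, which may be technical replicates. Mast cell 2, trap 1, trap 2 and trap 3 each stand alone in their batch and group and are assumed to vary like these pairs, so the p-values are too small if separate treatments vary more, and the counts restate the values within batches. The difference was higher in batch 3 than in batch 2 for 33 of the 36 members tested with edgeR and for 9 with DESeq2. Over all genes 3.27% passed in either direction, 2.9% higher and 0.368% lower. High levels in trap 3 and in mast cell 2 both raise this difference. With trap 2, these libraries held 88.0% of the treated counts in the median member, and pooled treated counts chose the members. The number of members called was thus partly set by that choice and by the filter on low counts, as it is for trap 3 in the comparison with batch 1 below. Tph1 differed by 3.72 on the log2 scale and Xist by 4.10. The largest values were those of Ednra (4.86), Adamts5 (4.82), Hs6st2 (4.73), Gp1ba (4.66) and Gna14 (4.56). Among those that did not pass were Il18r1 (3.26) and Nkpd1 (2.04). All 15 left-out genes tested passed in the same direction, with a median of 3.92 against 3.8 for the 36 members. Mast cell 2, trap 1, trap 2 and trap 3 cannot be left out of this fit, which needs a library of each group in each batch.

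Between batches 3 and 1 the difference was higher for 6 members, and for 2 with DESeq2, where 0.592% of all genes passed, 0.568% higher and 0.024% lower. They were Ednra (8.56), Adamts5 (7.99), Frmpd1 (4.95), Tph1 (3.72), Xist (3.60) and Cobl (3.09). Ednra and Adamts5 had 0 counts in trap 1, so their fitted values depend on the prior count. Between batches 2 and 1 it was called for 0 members, where 0.976% of all genes passed, 0.184% higher and 0.792% lower. DESeq2 also called 0, and 3 of the 36 had an unadjusted p below 0.05.

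Batches also differed in level within the treated libraries. Pooled treated counts chose the members, and mast cell 2, trap 2 and trap 3 held 88.0% of these in the median member. That batches 2 and 3 exceeded batch 1 was thus partly set by that choice and by the filter on low counts, and the numbers called are a description. Batch 2 exceeded batch 1 for 16 of the 36 members tested, or 44.4%, where 33.3% of all genes passed in either direction and 14.3% were higher. Among those with the largest change were Ddc, at log2 5.80 ± 1.26 (edgeR adjusted p = 0.0122), Galnt18, 5.36 ± 1.21, Car8, 5.30 ± 1.26, and Lsamp, 5.08 ± 1.17. The median of the 36 was 4.39, against 0.01 over all genes tested. The number called ran from 2 without trap 1, 6 without mast cell 2 and 7 without mast cell 1 or mast cell 4 to 37 without trap 3 and 44 without trap 2, fits in which the filter kept 13 to 45 members. DESeq2 called 32. Batch 3 exceeded batch 1 for 9 members, where 26.7% of all genes passed and 12.2% were higher. Ddc differed by 5.09 ± 1.30, Lsamp by 4.71 ± 1.2, Meis2 by 4.62 ± 1.41, Gnaz by 4.56 ± 1.34 and Galnt18 by 4.21 ± 1.36 on the log2 scale. Without mast cell 4 no member passed here, without mast cell 1 or trap 1 only 3 or 1 did, and without trap 2 the number was 42. DESeq2 called 30.

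Between batches 3 and 2, 1 of the 36 members tested passed and was lower in batch 3, where 24.8% of all genes passed, 14% higher and 10.7% lower. The median log2 difference of the 36 was -0.572. DESeq2 called 0 members, and the fits without mast cell 1, 3, 4 or 5 or without trap 1 called 0 as well. Without mast cell 2 the number called was 4 and the median turned to 1.45, and without trap 2 or trap 3 the number was 30 or 32. The filter was rerun in these fits, and their share of all genes called is not given here.

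Other mast cell genes, from lists made for this purpose and without the 16 left out, were compared by the same levels. The lists were chosen with earlier results of these data known, so their overlap with the members is a description. Over the whole table, 45 of 47937 genes were members. Of 68 surface and signalling genes in the table, 7 were members (Hs6st2, Il18r1, Mrgpra4, Mrgprx2, Rab27b, Rgs13 and Tespa1), 12 were under both limits and 49 had 0.1 CPM or more in untreated cells. Of the 49, Il9r and Itga2b were at least 5 times higher in pooled treated libraries: Il9r, the interleukin-9 receptor gene, went from 0.126 to 1.69 CPM and Itga2b, an integrin chain of platelets and mast cells, from 0.717 to 4.67 CPM. Of 33 mediator and enzyme genes, 5 were members (Tph1, Cyp11a1, Car8, Ddc and Maob) and 20 had 0.1 CPM or more in untreated cells. Of 23 transcription factor genes, Meis2 was the member, and Mitf stood at 161 CPM in pooled untreated and 152 CPM in pooled treated libraries. Gata1, at 0.00968 and 0.707 CPM, met both levels but had 0 counts in batch 1, and so did the granzyme gene Gzmb, at 0 and 0.514 CPM. Of 16 further protease genes Tpsg1 was the member. In the interaction between batches 3 and 2, with the limits given above and 2.9% of all genes higher and 0.368% lower, 18 of the 49 surface and signalling genes tested were higher, 6 of them members, and 1 was lower. Of 22 mediator and enzyme genes 6 were higher, 5 of them members, and of 16 transcription factor genes 5 were higher, 1 of them a member, and 1 was lower.

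Markers of other cell types that a mast cell culture or trap could carry were followed in the same libraries. None of the members was on the basophil, eosinophil, neutrophil, B cell, T and NK cell, mesothelial and fibroblast, or peritoneal macrophage and dendritic cell lists, and Gp1ba was the single member on the platelet and erythroid list. That list summed to 139 to 244 CPM in untreated, 168 to 285 CPM in mast cell supernatant and 185 to 254 CPM in trap supernatant libraries. Of its 19 genes in the table, 2 had 1 CPM or more in pooled untreated libraries, so the untreated sum rests mostly on these. Gp9 and Gp1bb, 2 genes of the list chosen after their values were seen, had few counts. They went from 0.0775 to 0.0459 and from 0.0484 to 0.0735 CPM between pooled untreated and treated libraries. Itga2b, of the same list, went from 0.717 to 4.67 CPM, with 10.4 CPM in mast cell 2 and 13.6 CPM in trap 3, and Alas2, Hbb-bs, Hbb-bt and Hba-a2 were at 0 in all 14. The basophil list of 8 genes summed to 5.09 to 8.88 CPM in untreated, 20.5 to 314 CPM in mast cell supernatant and 20.7 to 445 CPM in trap supernatant libraries. Of its genes, Cpa3, Fcer1a, Ms4a2 and Gata2 are also among the 16 left out. Of the other 4, Cd200r3, a receptor gene of basophils and mast cells, went from 1.57 to 7.69 CPM between pooled untreated and treated libraries, with 16.1 CPM in mast cell 2 and 18.5 CPM in trap 3. Il4 went from 0 to 0.0826 CPM, and the basophil protease genes Mcpt8 and Prss34 from 0.107 to 0.0184 and from 0.184 to 0.523 CPM. The part of these cell types in the members' levels was not tested. Neutrophil markers summed to 141 to 446, 110 to 383 and 119 to 372 CPM in the 3 groups, eosinophil markers to 35.7 to 97.2, 45.9 to 99.9 and 46.3 to 113.7 CPM, and T and NK cell markers to 148 to 389, 146 to 327 and 132 to 378 CPM. B cell markers summed to 23.8 to 37.7, 16.002 to 38.8 and 16.7 to 29.8 CPM, peritoneal macrophage and dendritic cell markers to 52.8 to 110.4, 53.6 to 156 and 68.7 to 148 CPM, and mesothelial and fibroblast markers to 9.28 to 170, 9.89 to 185 and 9.34 to 169 CPM. Of the 22 mesothelial and fibroblast genes, 7 were at 0 in all 14 libraries, among them Wt1, Krt19, Krt8, Upk1b and Muc16. Another 5 had 1 CPM or more in pooled untreated libraries. Within treated libraries, all 4 of the list that were tested were higher in batch 2 than in batch 1, where 14.3% of all genes were higher. For these 6 lists the ranges of treated and untreated libraries overlapped. The ranges pool the 3 batches, so this overlap cannot show whether a list changed with supernatant within a batch, which was not tested.

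Reading the counts back to single genes has limits that differ between members. Of the 45, 22 share no 50-base stretch of exon with another gene, and 5 share over 10%: Gm11843, Sytl3, Tespa1 (18.4%), Mrgpra4 (13.1%) and Xist (11.8%, nearly all with Tsix). The strand setting of the counting was not given in the sources used, so reads of overlapping genes on opposite strands, such as Sytl3 with Ezr, Ryr3 with Aven and Cadm3 with Aim2, could be mixed. Those 3 expressed partners differed little between pooled untreated and treated libraries, Aim2 standing at 43.7 and 40.4 CPM.

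The limits of the rule fell among genes with similar values. The members with the lowest pooled treated level were Mir1938 (0.505 CPM), Nkpd1 (0.523 CPM) and Gm33280 (0.533 CPM), and among the genes just under the limit were Hrh4 and Mrgprc2-ps, each at 0.496 CPM. Hrh4, a histamine receptor gene, had 3 untreated counts. The highest untreated levels among members were those of Enpp5 and Gnaz, at 0.0871 CPM or 9 counts, shared by Fam110c and Mir1938, and just over the limit were Gm26669 and P2rx1, at 0.107 CPM or 11 counts. P2rx1, an ATP-gated channel gene, had 1.07 CPM in pooled treated libraries.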

How the data were processed

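The authors deposited raw read counts per gene, whole numbers that were not normalised, made with featureCounts 2.0.0 on GRCm38 per the submitters' processing notes. Per the labels' protocols, RNA was isolated with Qiagen's RNeasy Plus Micro kit and libraries came from the Illumina stranded mRNA kit. The aligner, annotation release and strand setting were not given in the sources used here. Symbols, found for 47224 genes, and coordinates come from GENCODE release 21 (mouse) on GRCm38 and RefSeq tables. CPM is counts per total counts. Depth limits genes of few counts: intervals (exact binomial, 95%) and floors (3 counts) cover counting error only.

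Members, gene lists and tests were chosen with earlier results of these data known. The named genes are the 12 members with the highest treated level, up to 5 called members with the largest change per comparison and direction, up to 4 members per list, members near the limits of the rule or near a left-out gene, and the left-out genes. Others named were chosen after their values were seen. A few genes that the rule names are not reported here.

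Tests used R 4.3.3 and edgeR 4.0.16 (filterByExpr, TMM, group and batch, quasi-likelihood, robust dispersion, Benjamini-Hochberg, false discovery rate 0.05) on the 8 treated libraries, with DESeq2 1.42.0 as an alternative. Of these, only edgeR's test of trap against mast cell supernatant was also run on simulated data. The batch comparisons, the interaction and DESeq2 were not. Differences within a batch use a prior count of 1. SE is that implied by the F statistic. Replicates 1 to 3 of the treated groups carry batch labels 1 to 3, so the number marks a shared batch. With group means removed, same-numbered libraries correlated at 0.577 to 0.762 over genes and others at -0.492 to -0.184, and a fit with the number as a block was run. Chi-square per degree of freedom between libraries of a group was 1.82 to 15.2 within a batch and 31.8 to 81.9 otherwise, so none was taken as deposited more than once, but libraries of a batch may be technical replicates.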

Additional observations from a re-analysis of the deposited data

Results flagged for a closer look

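With mast cell supernatant, replicate 2 stood apart from the other 4 libraries of its group by a gap test in 37 of the 45 genes, a test that chance alone flags in about 1 of 20 groups. Among 12853 other genes at or above the treated minimum, leaving out the 16, it stood apart in 6.59%. The members were chosen on pooled treated counts, and this library held 76.3% of their counts with mast cell supernatant, so the 37 were partly set by that choice. The members also moved together and are not independent. Among the genes named, its levels were 32.6 CPM for Tph1, 17.9 for Cobl, 17.6 for Cyp11a1, 14.8 for Xist, 8.56 for Sytl3, 7.75 for Rprm, 6.82 for Frmpd1, 6.64 for Ryr3, 6.57 for Ednra, 6.45 for Rab27b and 5.64 for Mrgprx2. The summed level of the 45 genes, 216 CPM, and that of the 16 left-out mast cell genes, 1631 CPM, stood apart in the same library. It is the single mast cell supernatant library of batch 2, so the library and the batch cannot be told apart within that group.

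The trap minus mast cell difference had other values in other batches. In an interaction added after the values within batches were seen, it was higher in batch 3 than in batch 2 for 33 of 36 members with edgeR and 9 with DESeq2, where 3.27% of all genes passed and 2.9% were higher, with log2 values of 4.86 for Ednra, 4.82 for Adamts5, 4.73 for Hs6st2, 4.66 for Gp1ba and 4.56 for Gna14. It was higher in batch 3 than in batch 1 for 6 members, and 2 with DESeq2, where 0.592% of all genes passed and 0.568% were higher, among them Ednra at 8.56, Adamts5 at 7.99, Frmpd1 at 4.95, Tph1 at 3.72 and Xist at 3.60. Trap supernatant has 1 library in each batch and mast cell supernatant 1 in batch 2, and the error rests on 2 residual degrees of freedom, so the difference between batches and that between single libraries cannot be told apart. High levels in trap 3 raise both differences, and high levels in mast cell 2 the first. These libraries held much of the counts that chose the members and passed them through the filter on low counts. The numbers called were thus partly set by that choice and that filter.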

How the results depend on the processing

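The rule gave 45 members also with means of library CPM or TMM sizes, 36 or 60 with an untreated limit of 0.05 or 0.2 CPM, 71 or 24 with a treated minimum of 0.25 or 1 CPM, 33 to 49 when 1 library was left out, and 45 without batch 3, 40 of them shared. For trap against mast cell supernatant the genes called numbered 22, and 144 with no filter, 55 with DESeq2, 0 with all 14 libraries, 0 without the batch term, 4 with the replicate block over replicates 1 to 3, and 4 to 107 without 1 library. Members called were 0, 2 with no filter, 0 with the replicate block, and 0 to 18 without 1 library. For batch 2 against batch 1, members called were 16, 29 with scaling by total counts (6602 genes called, against 4166), 26 with no filter, 32 with DESeq2, 31 with all 14 libraries, and 2 to 44 without 1 library. For batch 3 against batch 1 they were 9, 14 by total counts, 25 with no filter, 30 with DESeq2, 19 with all 14 libraries, and 0 to 42 without 1 library (1950 genes called without mast cell replicate 5, 2095 without mast cell replicate 4, up to 4024 without trap replicate 2, against 3335). For batch 3 against batch 2 they were 1, 0 with DESeq2, and 0 to 32 without 1 library, with 4834 genes called in all 14 libraries against 3099. For the trap minus mast cell difference, batch 3 against batch 2, DESeq2 called 138 genes and 9 members against 409 and 33, and total counts 29 members. Leaving out 1 library gave 387 to 633 genes and 30 to 34 members. For batch 2 against batch 1 the genes called were 122, 78 by total counts, 40 with DESeq2 and 160 to 217 without 1 library, and members 0, 1 with no filter and 0 to 1 without 1 library. For batch 3 against batch 1 the genes called were 74, 40 by total counts, 142 with no filter, 33 with DESeq2 (2 members against 6) and 77 to 247 without 1 library, with 4 to 8 members. The causes were not tested. Of 210 alternatives for single named members, 169 kept direction and call, 41 kept direction but not the call, and 0 reversed. These cover only members called in the main fits. Trap against mast cell supernatant, where 0 members were called and the median turned without trap 3, has none among them. The interaction fits cannot leave out mast cell 2 or any trap library. Low counts limit the 21 members under 1 CPM.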
